A study of Homo sapiens with 40 samples.

Results

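Interferon-stimulated genes are the genes that a cell transcribes when it senses interferon, and 39 of them were followed across the transcriptomes of HepaRG cells exposed to PCB 126, glyphosate or Roundup. The 39 were taken by gene symbol from a list of well-known interferon targets, out of 56568 gene names in the tables, and the rule used the symbols alone. HepaRG is a human hepatic cell line whose differentiated cultures mix hepatocyte-like and biliary-like cells. The level of each gene was its FPKM (a fragment count relative to transcript length and sequencing depth) summed over all transcripts that carried its name. The members hence comprised a small part of each transcriptome, between 0.107 and 0.160% of the named FPKM, with a median of 0.140%.

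There were 8 groups of 5 libraries, 40 in all. Every group, the solvent control included, was kept from day 8 to day 14 in medium with 1% DMSO and 2% fetal bovine serum. Apart from the control, the groups received PCB 126 (100 pM, 10 nM or 1 µM), glyphosate (10 µg/L, 1 mg/L or 0.1 g/L) or Roundup (10 µg/L), so the exposure lasted 6 days. PCB 126, a polychlorinated biphenyl with the activity of a dioxin, binds the aryl hydrocarbon receptor, glyphosate is a herbicide, and Roundup is a commercial formulation of glyphosate. The same 5 control libraries served both the PCB 126 and the glyphosate table. All libraries came from 1 cell line and the labels do not say whether they were separate cultures, so the p-values below measure only the spread between these libraries.

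Type I interferons bind the IFNAR1-IFNAR2 receptor, whose kinases JAK1 and TYK2 phosphorylate STAT2. It joins IRF9 in a complex, ISGF3, which binds interferon-stimulated response elements (ISRE) in the promoters of its targets. The targets include antiviral effectors such as the IFIT, IFITM, OAS and MX families, sensors of viral RNA such as DDX58 (RIG-I) and IFIH1 (MDA5), and parts of the pathway itself such as IRF7, STAT2 and IRF9. In the liver this response is known from infection with hepatitis viruses, and several of these genes are also transcribed at a basal level without added interferon.

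The element bound by ISGF3 was present in promoter sequences of most, but not all, members with a matched promoter. The ISRE core, taken as GAAA followed by any 2 bases and GAAA again, was searched on both strands from 250 bases before to 50 bases after each annotated start in RefSeq (GRCh38.p14). A promoter was found for 32 of the 39 members, with DDX58 under its current symbol RIGI, and 23 of those 32 (71.9%) held the core. The core was present in 27 of the 40 promoters of these members (67.5%), against 3.57% of all 35116 promoters. GCGTG, the core of the element bound by the aryl hydrocarbon receptor, was present in 8 of the 40 (20.0%) and in 36.5% of all promoters. No sequence was matched for IFIT2, IFITM2, IRF7, MX2, OAS2, OASL and USP18. The windows of 30 bases shown here belong to 3 members with a high basal level (ISG15, IFITM3 and BST2) and 3 with a low one (IFI44L, ISG20 and RSAD2), and they are shown because both kinds carry the element. They are written 5′ to 3′ on the strand of the gene, with the core in capitals, and RSAD2 holds it on the opposite strand. The other of the 2 annotated RSAD2 promoters held no match.
ISG15, chr1:1013374-1013403, plus strand: catgcctcggGAAAGGGAAAccgaaactga
IFITM3, chr11:320893-320922, minus strand: caaatgccagGAAAAGGAAActgttgagaa
BST2, chr19:17405741-17405770, minus strand: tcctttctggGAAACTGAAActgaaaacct
IFI44L, chr1:78620274-78620303, plus strand: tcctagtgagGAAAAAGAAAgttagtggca
ISG20, chr15:88638937-88638966, plus strand: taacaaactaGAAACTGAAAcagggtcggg
RSAD2, chr2:6877622-6877651, plus strand: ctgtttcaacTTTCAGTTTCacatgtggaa
A match in these windows describes the letters only and says nothing of binding in these cells.

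The libraries themselves set limits on what the members can show. The summed FPKM over all transcripts ranged from 255292 to 513059 (median 427165), the read depth is not given in the tables, and no counting interval was computed for that reason. On the first principal component 9 of the 40 libraries stood apart from the rest, among them control replicate 5, replicates 3 and 5 of 10 nM PCB 126, and replicates 1 and 5 of 1 µM PCB 126, and the others were glyphosate 10 µg/L replicate 5, glyphosate 0.1 g/L replicate 2 and Roundup replicates 4 and 5. The median log2(FPKM + 1) of the members was 1.75 to 2.27 in these 9 and 2.29 to 2.90 in the other 31. The 75th percentile of FPKM over all genes was 2.47 to 4.16 in the 9 and 3.34 to 5.05 in the 31. Over the 312 combinations of a member and a group, the 9 libraries held the lowest of the 5 values in 198 and the highest in 7. Values without them are given beside the main results.

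**Figure D1:**
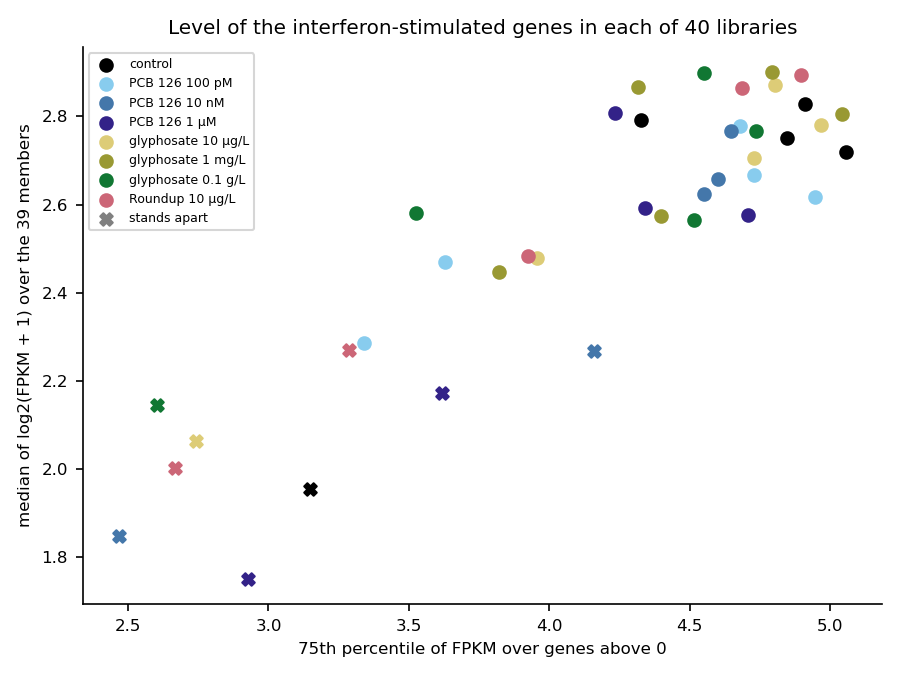
Median log2(FPKM + 1) over the 39 members (vertical axis) against the 75th percentile of FPKM over all genes above 0 (horizontal axis), with a point for each of the 40 libraries coloured by group and a cross for those that stood apart on the first principal component. The crosses lie between 1.75 and 2.27 on the vertical axis and the other 31 libraries between 2.29 and 2.90, with every group represented among the latter.

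The labels could be checked against known marker genes. Of 5 target genes of the aryl hydrocarbon receptor, CYP1A1, CYP1A2, CYP1B1 and TIPARP passed the test at 10 nM and 1 µM PCB 126, where all 4 rose, and none passed at 100 pM. The summed FPKM of the 5 was 11.2 to 41.2 (median 21.3) in the control libraries and 32.1 to 585 (median 86.6) at 100 pM. The log2 fold change of CYP1A1 at 1 µM was 6.61. The cells expressed hepatocyte markers in all groups, and the summed FPKM of 6 such genes was 14395 to 21006 in the control libraries and 5645 to 14180 at 1 µM PCB 126, where TTR and FGB fell. The summed FPKM of 5 biliary markers was 224 to 452 in the control libraries and 122 to 215 at 1 µM, and none of these genes passed the test. Most of that sum was KRT19 (97.9 to 407 FPKM over all libraries), while KRT7 was at most 1.51 FPKM and EPCAM at most 0.0738 FPKM. The summed FPKM of 5 stromal markers was 37.9 to 82.3 (median 77.3) in the control libraries, 49.6 to 152 (median 123) at 10 nM and 48.2 to 187 (median 163) at 1 µM, with most of it in LUM, which did not pass the test, while COL3A1 fell at 10 nM and 1 µM. In bulk samples fewer cells of a type and less RNA per cell cannot be told apart, and the part of this shift in the values of the interferon-stimulated genes was not tested. The summed FPKM of 6 immune cell markers was 4.21 to 14.0 (median 9.25) in the control libraries, 5.14 to 10.1 (median 8.16) at 1 µM and 3.31 to 18 over all libraries, nearly all of it from LYZ, CD14 and CD68. Of the markers that define leukocytes and lymphocytes, PTPRC was at most 0.0429 FPKM, CD3E at most 0.0467 FPKM and MS4A1 at most 0.236 FPKM in any library.

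In the control libraries the interferon-stimulated genes spanned more than 3 orders of magnitude, from the IFITM family down to RSAD2. FPKM is scaled by transcript length, so levels can be set beside each other between genes, but here for named transcripts only. With transcripts of the locus that carry no gene name added, some control means were higher. PARP9 rose from 3.56 to 9.68 FPKM, STAT2 from 12.6 to 19.1 FPKM and DDX58 from 1.62 to 3.21 FPKM. The order and the counts below would shift for such genes. The mean was above 50 FPKM for 3 members, 10 to 50 for 6, 3 to 10 for 22, 1 to 3 for 3, and 1 or less for 5. The median of the 39 means was 5.32 FPKM. The coefficient of variation over the 5 control libraries had a median of 28.2% and ranged from 13.8% for GBP1, a guanylate-binding GTPase, to 110% for RSAD2. For the 34 members with a mean above 1 FPKM the median was 27.7%, against 30.5% over the 12734 genes with such a mean.

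At the top of the order were IFITM2 and IFITM3, membrane proteins that block the entry of enveloped viruses, and BST2 (tetherin), which holds budding virions at the cell surface. IFITM2 was 137, 84.5, 90.2, 83.5 and 52.0 FPKM in control replicates 1 to 5. IFITM3 was 69.9, 37.9, 120.1, 125.5 and 83.2 FPKM. BST2 was 93.9, 84.8, 77.9, 73.1 and 40.5 FPKM. These 3 ranges overlap, so their order cannot be told apart from the spread, and together the 3 genes held 42.6 to 57.4% of the members' FPKM in a library (median 53.3%). IFI6, a mitochondrial protein of the interferon response, followed at 45.5, 34.8, 30.3, 26.6 and 24.7 FPKM, and its highest library lay above the lowest of BST2. ISG15, the ubiquitin-like protein that is conjugated to other proteins, was 19.8, 15.6, 19.4, 22.7 and 9.23 FPKM, wholly below IFI6.

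At the bottom of the order were ISG20, an exonuclease that degrades RNA, IFI44L, MX2, OASL and RSAD2 (viperin). ISG20 was 0.783, 1.76, 0.312, 0.405 and 0.259 FPKM in the control libraries. IFI44L was 0.725, 0.460, 0.952, 0.858 and 0.463 FPKM. MX2, a GTPase that restricts retroviruses, was 0.570, 0.399, 0.326, 0.575 and 0.118 FPKM. Neighbours in this low range overlap as well. OASL, a relative of the oligoadenylate synthetases, was 0.176, 0.255, 0.368, 0.288 and 0.113 FPKM. RSAD2, a radical SAM enzyme that makes a chain-terminating nucleotide, was listed at 0 in control replicates 1 and 5 and at 0.0215, 0.0210 and 0.0486 FPKM in replicates 2, 3 and 4. It was listed at 0 in 13 of all 40 libraries and its highest value anywhere was 0.190 FPKM. The 10-base ISRE core was thus found in promoters of genes at both ends of the order.

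**Figure D2:**
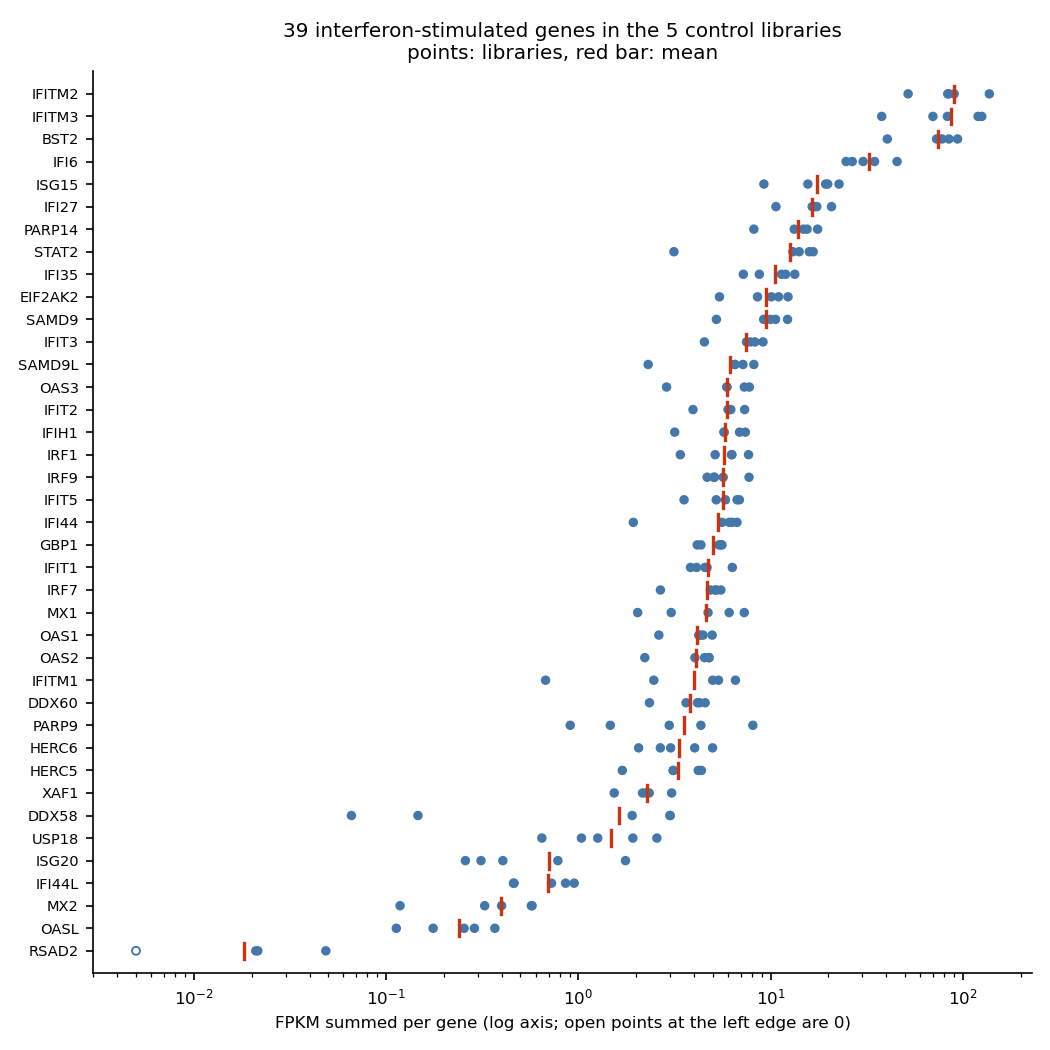
FPKM of the 39 members in the 5 control libraries on a log axis, ordered by mean, with a point for each library, a bar for the mean and open points for values of 0. IFITM2, IFITM3 and BST2 stand at the top with means of 89.5, 87.3 and 74 FPKM, most members lie between 3 and 10, and RSAD2 lies far below the rest with 2 of 5 libraries at 0.

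The pathway upstream was transcribed in these cells, apart from the interferons. Of the 20 interferon genes on the list, 10 were at 0 in all 40 libraries, namely IFNA2, IFNA6, IFNA7, IFNA8, IFNA10, IFNA14, IFNA17, IFNG, IFNL2 and IFNL3. The highest FPKM of any ligand was 0.992 for IFNE, and IFNB1 reached 0.168 FPKM and IFNA1 0.169 FPKM. The receptor chain IFNAR1 was 12.1 to 24.3 FPKM in the control libraries (median 19.6) and IFNAR2 was 4.66 to 10.6 FPKM (median 9.66). For the interferon gamma receptor, IFNGR1 was 10.9 to 30.8 FPKM (median 19.2) and IFNGR2 11.7 to 20.8 FPKM (median 18.8). The interferon lambda receptor chain IFNLR1 was lower, at 0.635 to 1.95 FPKM (median 1.18), and its partner IL10RB was 5.65 to 12.4 FPKM (median 10.8). The kinase JAK1 was 21.7 to 66.1 FPKM (median 49.3) and TYK2 6.46 to 17.3 FPKM (median 11.9).

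The question of the design was whether any exposure moved these genes away from the control level. The tests were run with limma on log2(FPKM + 1) over all genes with a variance of FPKM above 1, with Benjamini-Hochberg adjustment over all of them and a threshold of 0.05. The filter kept 28 of the 39 members among 9755 genes with PCB 126 and 29 among 9533 genes with glyphosate and Roundup. IFI44L, ISG20, MX2, OASL, RSAD2, DDX60, XAF1, USP18 and HERC5 stayed below it in both tables, OAS1 and OAS2 only with PCB 126, and HERC6 only with glyphosate and Roundup. Fold changes are differences of log2(FPKM + 1), a scale on which low genes appear to change less than they do.

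No member passed the test at any PCB 126 concentration. At 100 pM 0 of 28 members were called (background 0.0% of all genes), at 10 nM 0 of 28 (background 0.205%), and at 1 µM 0 of 28 (background 1.87%). The trend over dose steps called 0 of 28 (background 3.7%), and the test across the 4 groups called 0 of 28 (background 1.39%). With an unadjusted p under 0.05 there were 0 members at 100 pM, 0 at 10 nM, 1 at 1 µM, 1 in the trend and 0 across the groups, and the gene was IRF9 each time. Over all genes such a p was reached by 1.19%, 4.85%, 13.6%, 18.6% and 9.56%. An ordinary linear model with a term for library size called 0 members in each of these comparisons except the trend, where it called PARP14, an ADP-ribosyltransferase. In that trend the ordinary linear model called 888 of 9755 genes. Its term for library size was the sum of the log2(FPKM + 1) values below the 75th percentile of each library. It is a level of expression and not the read depth. Without the libraries that stood apart, OAS3 had the smallest p of the 28 members at 1 µM and in the trend (limma adjusted p = 0.178 and 0.186). OAS3 was 5.96 FPKM ± 1.91 in the control group and 4.16 FPKM ± 0.98 at 1 µM (SD, n = 5, all libraries).

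As tested, the members' median fold change lay near that of all genes at 10 nM, below it at 100 pM and above it at 1 µM. Their median log2 fold change was 0.00 at 100 pM, where that of all genes tested was 0.07. At 10 nM it was -0.19 against -0.21, and at 1 µM it was -0.14 against -0.26. Below 0 were 14 of the 28 members at 100 pM, 23 at 10 nM and 22 at 1 µM, while over all genes 28.4%, 83.3% and 79.2% were below 0. These values moved when libraries were left out. Without those that stood apart the members' median was -0.14 at 100 pM, -0.06 at 10 nM and -0.01 at 1 µM, with 26, 15 and 16 of the 28 below 0, where all genes had medians of -0.08, -0.05 and -0.12. With a term for library size the median was -0.08, 0.05 and 0.14, with 20, 12 and 10 below 0, where all genes had medians of 0.003, -0.003 and 0.014. At 1 µM the members' median was above that of all genes in each of these fits. Without the variance filter it was below (-0.12 against -0.03). The 3 concentrations were compared with the same control libraries and are not independent of each other. The 95% interval of a member's fold change had a median width of 0.59 on either side in the PCB 126 table, and it lay within -1 to 1 for 21, 20 and 18 of the 28 members at 100 pM, 10 nM and 1 µM. A change of 2-fold on this scale lay outside the interval for these members and inside it for the others.

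The groups overlapped for every member. None of the 39 members had 5 treated values wholly above or wholly below the 5 control values in any of the 7 comparisons with the control or in Roundup against 10 µg/L glyphosate. Over all genes tested, non-overlap upwards and downwards occurred for 0.113% and 0.0513% at 100 pM, 0.267% and 0.246% at 10 nM, and 0.707% and 1.64% at 1 µM. For 10 µg/L, 1 mg/L and 0.1 g/L glyphosate the upward shares were 0.0105%, 0.147% and 0.042% and the downward shares 0.042%, 0.0315% and 0.042%. For Roundup both shares were 0.021%, and against 10 µg/L glyphosate they were 0.021% and 0.0839%.

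**Figure D3:**
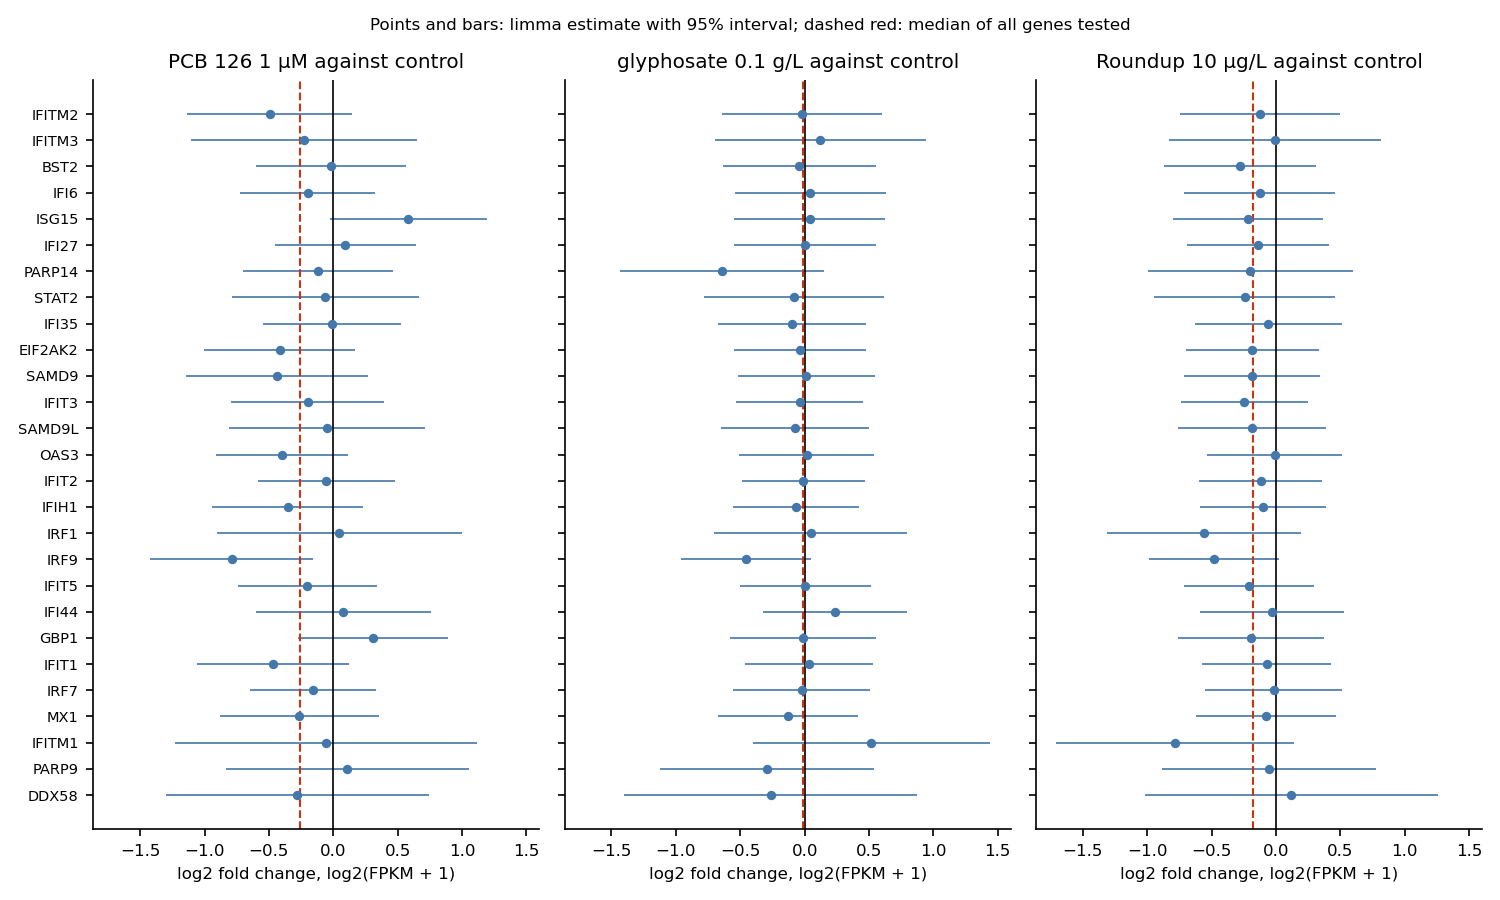
Log2 fold change on the log2(FPKM + 1) scale with its 95% interval for the 27 members tested in both tables, for 1 µM PCB 126, 0.1 g/L glyphosate and Roundup against the control libraries, with the median of all genes tested as a dashed line. At 1 µM PCB 126 the values run from -0.79 for IRF9 to 0.58 for ISG15 around a median of -0.14, and no member passed the adjusted threshold.

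Among the 28 members past the filter, IRF9, the DNA-binding subunit of ISGF3 (chr14:24161053-24166565), had the smallest p at 1 µM PCB 126. It was 5.07, 5.67, 7.73, 4.68 and 5.11 FPKM in the control libraries and 0.531, 4.32, 5.45, 4.22 and 1.91 FPKM at 1 µM. At 100 pM it was 2.90, 5.58, 2.47, 3.40 and 2.95 FPKM, and at 10 nM 5.15, 4.02, 2.95, 4.83 and 3.81 FPKM. The control mean, 5.65 FPKM ± 1.21 (SD, n = 5), was the highest of the 8 group means, and the lowest values at 1 µM were those of replicates 1 and 5, which stood apart from the other libraries. The log2 fold change in limma was -0.79 at 1 µM (SE 0.31, 95% interval -1.42 to -0.15, adjusted p = 0.238). It was -0.60 at 100 pM (adjusted p = 1) and -0.37 at 10 nM. Without the libraries that stood apart the value at 1 µM was -0.25, and without 1 µM replicate 1 it was -0.46.

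For IRF9 the split of FPKM between named and unnamed transcripts of the locus also differed between libraries. An unnamed transcript of 30 exons (chr14:24147271-24169397) spans IRF9 and its neighbour RNF31. It held 1.88 and 2.11 FPKM in replicates 1 and 5 of 1 µM and 3.23 FPKM in replicate 3 of 100 pM. The named IRF9 was low there, and the control libraries held 0.012 to 0.182 FPKM of this transcript. How much of its FPKM came from IRF9 rather than RNF31 was not tested. With the overlapping unnamed transcripts added to the gene, IRF9 was 5.70 FPKM ± 1.2 in the control group and 4.09 FPKM ± 1.09 at 1 µM (SD, n = 5). These sums ranged from 4.70 to 7.74 FPKM in the control libraries and from 2.41 to 5.47 FPKM at 1 µM. The log2 fold change became -0.41 (limma, 95% interval -0.90 to 0.08, adjusted p = 0.452). The annotated gene AL136295.5 also overlaps IRF9, and with it in place of the unnamed transcript the sums were 6.36 FPKM ± 1.22 in the control group and 3.81 FPKM ± 2.22 at 1 µM.

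ISG15 (chr1:1001138-1014541) came next among these 28 at 1 µM and had the opposite sign. It was 45.7, 22.1, 24.2, 27.7 and 15.5 FPKM at 1 µM, against 9.23 to 22.7 FPKM in the control libraries listed above. At 100 pM it was 15.7, 19.9, 20.5, 23.2 and 15 FPKM, and at 10 nM 22.9, 18.8, 9.12, 20.7 and 13.1 FPKM. Hence 3 of the 5 libraries at 1 µM lay above the highest control library, and replicate 1, 1 of those that stood apart, lay far above the rest. The log2 fold change was 0.58 (SE 0.29, 95% interval -0.02 to 1.19, limma adjusted p = 0.389). It was 0.38 without 1 µM replicate 1, 0.39 without control replicate 5 and 0.34 without the libraries that stood apart. After quantile normalization, which gives all libraries the same distribution, it was 0.77 with an adjusted p of 0.0459, past the threshold, as were 5.45% of all genes in this direction.

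IRF9 and ISG15 thus lay at the opposite ends of the 28 members tested at 1 µM PCB 126, and neither passed the adjusted threshold as tested. IFI6 at 1 µM had a similar high library, with 43.7 FPKM in replicate 1 and 26.5, 25, 26.7 and 20.0 FPKM in the others. At 10 nM IFI6 was 22.6, 26.7, 15.9, 33.4 and 20.1 FPKM, all 5 within or below the control range, and had the smallest p of the 28 members past the filter there (log2 fold change -0.44, SE 0.26, 95% interval -0.97 to 0.09, limma adjusted p = 0.865). IRF7, the factor that amplifies interferon transcription, came next at 10 nM. It was 4.5, 4.15, 1.98, 4.42 and 2.43 FPKM there, against 5.14, 5.51, 5.23, 4.86 and 2.67 FPKM in the control libraries, and its log2 fold change was -0.36 (limma adjusted p = 0.865). The lowest values of IRF7 in both groups were those of the libraries that stood apart.

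DDX58, which binds viral RNA with a 5′ triphosphate, had values that split into separate levels. Its named FPKM was 0.0249 to 0.266 in 16 libraries and 1.51 to 3.93 in the other 24. In the control libraries it was 0.0660, 0.146, 3.01, 3.00 and 1.91 FPKM, and at 100 pM 2.74, 3.18, 3.37, 0.202 and 2.43 FPKM. Unnamed transcripts that overlap the gene held 1.45 to 4.01 FPKM in the 16 libraries (median 3.12) and 0 to 1.55 FPKM in the 24 (median 0.192). The log2 fold change at 100 pM was 0.46 (limma adjusted p = 1) and became 0.02 when these transcripts were added.

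**Figure D4:**
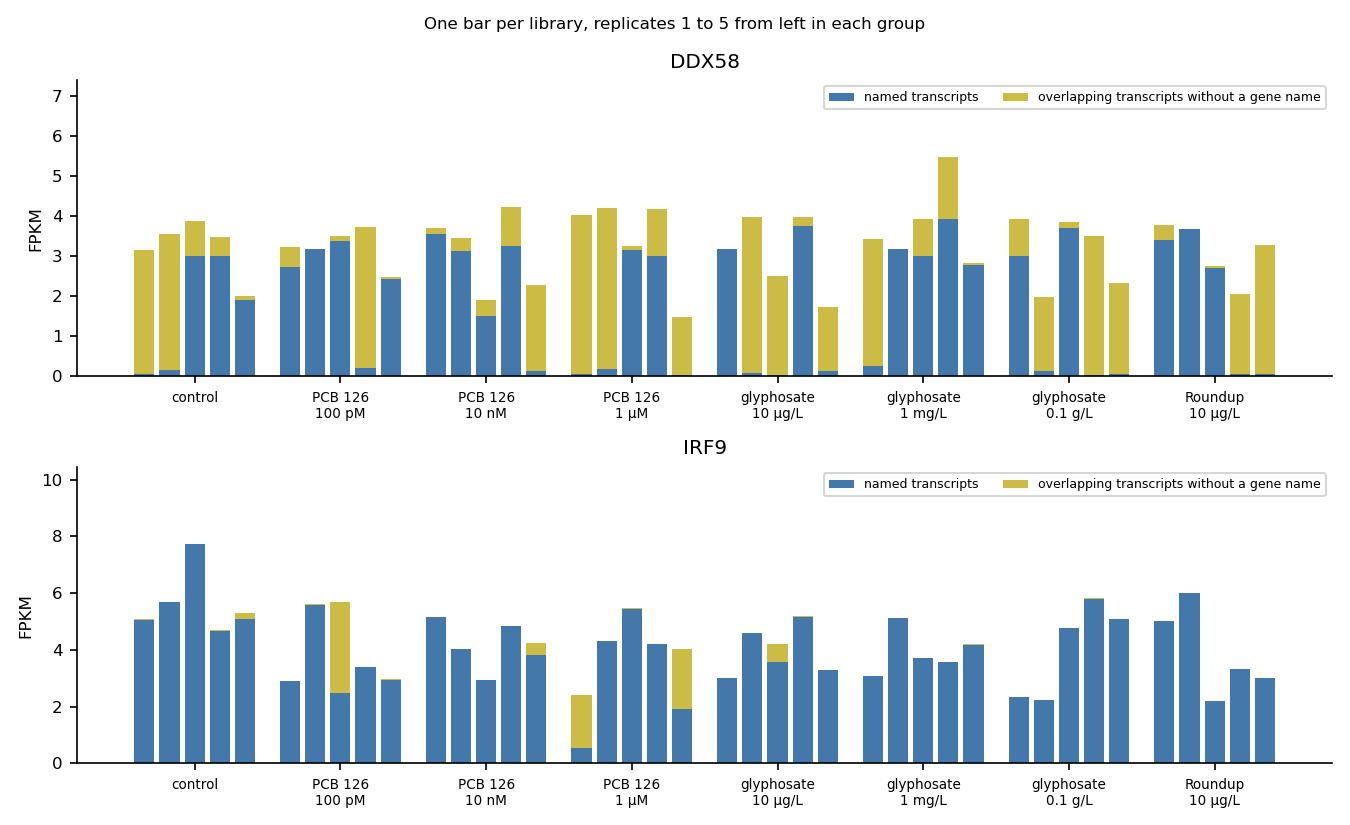
FPKM of the transcripts named for DDX58 and IRF9 (blue) and of the overlapping transcripts without a gene name (yellow, stacked on top), with a bar for each of the 40 libraries by group. For DDX58 the blue part is at most 0.266 FPKM in 16 libraries, most of whose bar is yellow, and for IRF9 the yellow part is large in replicate 3 of 100 pM and in replicates 1 and 5 of 1 µM PCB 126.

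The IFIT proteins bind viral RNA without the cap methylation of the host, and 4 of them are members. IFIT1 was 4.56, 4.12, 4.67, 6.32 and 3.83 FPKM in the control libraries and 1.24, 4.68, 4.18, 4.62 and 2.09 FPKM at 1 µM PCB 126. IFIT2 was 6.10, 7.33, 6.01, 6.21 and 3.95 FPKM in the control libraries and 3.29, 7.19, 8.45, 6.54 and 3.90 FPKM at 1 µM. IFIT3 was 9.13, 8.28, 7.85, 7.50 and 4.52 FPKM in the control libraries and 2.74, 8.61, 9.06, 8.40 and 4.75 FPKM at 1 µM. In each of the 3 the groups overlap, and at 1 µM replicates 1 and 5, which stood apart, are the lowest. IFIT5 was 6.88, 6.70, 5.83, 5.22 and 3.55 FPKM in the control libraries and 2.37, 6.41, 5.68, 6.07 and 3.92 FPKM at 1 µM. Over the 7 comparisons with the control the log2 fold changes were -0.46 to 0.16 for IFIT1, -0.26 to 0.17 for IFIT2, -0.29 to 0.13 for IFIT3 and -0.21 to 0.11 for IFIT5, and none passed the test.

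The IFITM genes overlapped between the groups. IFITM2 was 51.9, 66.9, 79.5, 94.4 and 30.8 FPKM at 1 µM PCB 126, and IFITM3 was 78.2, 40.2, 123 and 46.7 FPKM in replicates 1 to 4 and 82.8 FPKM in replicate 5. Both ranges overlap those of the control libraries given above. IFITM3 ran from 30.9 to 169 FPKM over the 40 libraries. IFITM1, the member of the family found at the cell surface, was 6.57, 5.36, 5.00, 2.47 and 0.675 FPKM in the control libraries and 3.82, 8.33, 6.62, 3.04 and 0 FPKM at 1 µM. These genes are near-identical neighbours on chr11, IFITM1 and IFITM2 share a locus in the assembly, and their separate values are uncertain to the extent that fragments could be assigned to either. The log2 fold changes over the 7 comparisons were -0.78 to 0.52 for IFITM1, -0.49 to 0.09 for IFITM2, -0.33 to 0.42 for IFITM3 and -0.32 to 0.15 for BST2, and none passed the test.

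Among the members below the variance filter, IFI44L and OAS1 were lower at 1 µM PCB 126 without passing the adjusted threshold. IFI44L was 0.0781, 0.155, 0.517, 0.130 and 0.160 FPKM at 1 µM, so only replicate 3 lay above the lowest control library (0.460 FPKM). Its low values at 1 µM were not those of replicates 1 and 5 alone, since replicates 2 and 4 were as low. At 100 pM it was 0.520, 0.858, 0.342, 0.712 and 0.348 FPKM, and at 10 nM 1.46, 0.657, 0.279, 0.813 and 0.134 FPKM. In a limma fit without the filter its log2 fold change at 1 µM was -0.49 (SE 0.17, adjusted p = 0.370). OAS1, an enzyme whose product activates RNase L, was 4.46, 4.97, 4.32, 4.23 and 2.62 FPKM in the control libraries and 2.20, 3.45, 2.82, 2.85 and 2.70 FPKM at 1 µM. It is named here after its values were seen, and its log2 fold change without the filter was -0.42 (SE 0.14, limma adjusted p = 0.353), and IFI44L and OAS1 both had a smaller p than IRF9 there. At 10 nM OAS1 was 3.98, 3.46, 2.6, 3.46 and 1.95 FPKM, and it was the only 1 of the 11 members below the filter with an unadjusted p under 0.05 (log2 fold change -0.33, limma adjusted p = 0.951). IFI44L and OAS1 were the 2 of the 11 members below the filter with an unadjusted p under 0.05 at 1 µM. In the PCB 126 trend without the filter OAS1 had the smallest p of the 39 members (limma adjusted p = 0.140).

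The other low members overlapped the control libraries as well. At 1 µM PCB 126 ISG20 was 0.420, 0.520, 0.650, 0.586 and 0.310 FPKM, and MX2 was 0.248, 0.410, 1.03, 0.879 and 0.432 FPKM. OASL was 0.167, 0.138, 0.366, 0.201 and 0.226 FPKM, and RSAD2 was 0.0175, 0.0189, 0.190, 0.118 and 0 FPKM. The groups overlap in all 4. Without the filter the fold changes of the 11 members at 1 µM ran from -0.49 to 0.18 on the log2 scale.

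The lower PCB 126 concentrations gave the following values for the members whose libraries at 1 µM are given above. IFIT1 was 3.55, 4.02, 3.67, 6.99 and 4.14 FPKM at 100 pM, and 5.05, 3.31, 1.8, 5.08 and 2.41 FPKM at 10 nM. IFIT2 was 4.55, 6.87, 6.57, 6.99 and 4.38 FPKM at 100 pM, and 6.14, 5.11, 2.8, 6.09 and 4.04 FPKM at 10 nM. IFIT3 was 6.4, 7.15, 7.69, 8.2 and 5.55 FPKM at 100 pM, and 8.8, 6.84, 3.22, 7.05 and 4.41 FPKM at 10 nM. At 10 nM replicate 3, which stood apart, was the lowest of the 5 for each of these genes. IFIT5 was 5.25, 5.98, 5.86, 6.95 and 4.6 FPKM at 100 pM, and 6.54, 5.63, 2.75, 6.44 and 3.69 FPKM at 10 nM. IFITM1 was 4.04, 4.94, 4.92, 0.632 and 3.15 FPKM at 100 pM, and 6.95, 5.36, 0.338, 5.17 and 0.52 FPKM at 10 nM. IFITM2 was 96.9, 85.7, 96.4, 88.8 and 69.5 FPKM at 100 pM, and 90.6, 82.2, 34.3, 85.9 and 54.1 FPKM at 10 nM. At 10 nM replicates 3 and 5, which both stood apart, were the lowest for each of these. IFITM3 was 43, 45.6, 131, 36.2 and 113 FPKM at 100 pM, and 169, 43.3, 59.3, 152 and 82.9 FPKM at 10 nM. BST2 was 71.3, 85.3, 88.1, 88.9 and 56.8 FPKM at 100 pM, 82.8, 65, 33.1, 75.8 and 43.8 FPKM at 10 nM, and 90.8, 70.6, 70.9, 84.4 and 45.3 FPKM at 1 µM PCB 126. IFI6 was 30.3, 37.2, 34.9, 47.1 and 26.8 FPKM at 100 pM. For IFITM3 the lowest library at 10 nM was replicate 2, whereas for BST2 it was replicate 3.

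The factors, PARP14 and the sensor DDX58 were measured in the same libraries. IRF7 was 3.56, 4.76, 4.9, 4.72 and 3.91 FPKM at 100 pM, and 2.97, 4.87, 4.01, 4.96 and 3.51 FPKM at 1 µM PCB 126. IRF1 was 5.65, 7.47, 6.04, 0.88 and 3.62 FPKM at 100 pM, 8.4, 7.51, 0.349, 8.15 and 6.69 FPKM at 10 nM, and 6.25, 2.46, 9.73, 9.28 and 4.25 FPKM at 1 µM PCB 126. PARP14 was 11.9, 15.5, 15.1, 17.2 and 11.6 FPKM at 100 pM, 16.2, 14.6, 7.14, 15.5 and 9.92 FPKM at 10 nM, and 6.75, 17.2, 17, 15.7 and 9.01 FPKM at 1 µM PCB 126. IRF1 had 1 library far below the other 4 at 100 pM, replicate 4, and at 10 nM, replicate 3. DDX58 was 3.56, 3.13, 1.51, 3.25 and 0.13 FPKM at 10 nM, and 0.0651, 0.193, 3.15, 3.01 and 0.0249 FPKM at 1 µM PCB 126. ISG20 was 0.68, 1.28, 1.28, 0.55 and 0.408 FPKM at 100 pM, and 0.746, 0.755, 0.28, 0.692 and 0.521 FPKM at 10 nM. MX2 was 0.339, 0.387, 0.172, 0.302 and 0.251 FPKM at 100 pM, and 0.879, 0.298, 0.216, 0.516 and 0.455 FPKM at 10 nM. DDX58 was at its low level in 1 library at 10 nM and in 3 at 1 µM. OASL was 0.623, 0.254, 0.283, 0.26 and 0.363 FPKM at 100 pM, and 0.255, 0.188, 0.0916, 0.367 and 0.12 FPKM at 10 nM. RSAD2 was 0, 0, 0.0384, 0.0245 and 0.0105 FPKM at 100 pM, and 0.0501, 0, 0, 0.0168 and 0 FPKM at 10 nM. At 100 pM 1 OASL library lay above the highest control library, and RSAD2 was listed at 0 in 2 libraries at 100 pM and in 3 at 10 nM.

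**Figure D5:**
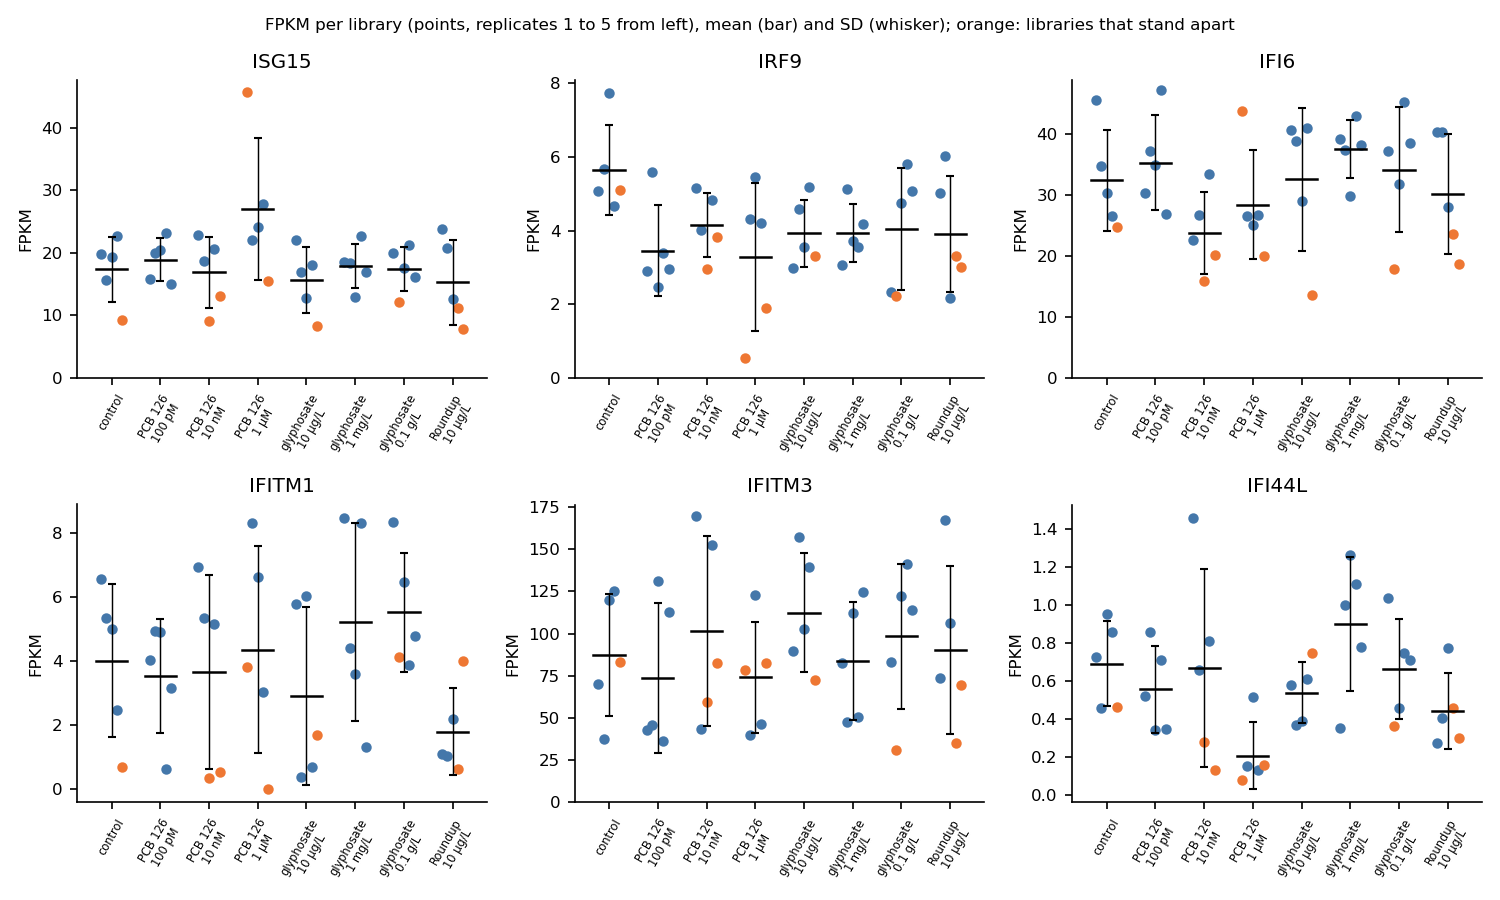
FPKM of ISG15, IRF9, IFI6, IFITM1, IFITM3 and IFI44L in each of the 40 libraries by group, with a bar for the group mean, a whisker for the SD and the libraries that stood apart in orange. All treated groups overlap the control group in each panel, with 1 of 5 IFI44L values at 1 µM PCB 126 above the lowest control value and with ISG15 at 45.7 FPKM in 1 µM replicate 1.

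Glyphosate and Roundup gave no call for any gene in limma as tested. There 0 of 29 members were called at any of the 3 glyphosate concentrations, under Roundup, in Roundup against 10 µg/L glyphosate, in the glyphosate trend and across the 5 groups, and the background was 0.0% in each. An unadjusted p under 0.05 was reached by 1 member across the 5 groups, IFITM1 (adjusted p = 0.995, limma), and by 0 members in each other comparison. The ordinary linear model with a term for library size called 0 members in these comparisons too. The members' median log2 fold change was -0.06 at 10 µg/L, 0.14 at 1 mg/L and -0.02 at 0.1 g/L glyphosate, where all genes tested had medians of -0.04, 0.14 and -0.01. Without the libraries that stood apart the median at 1 mg/L was -0.03, against -0.01 over all genes, and 19 of the 29 members were below 0 there in place of 6. With scaling to the 75th percentile it was 0.02 at 10 µg/L, 0.13 at 0.1 g/L and 0.05 under Roundup. All genes then had medians of 0.04, 0.14 and 0.005. As tested, the members' median under Roundup was -0.14 against -0.18, and for Roundup against 10 µg/L glyphosate -0.12 against -0.14. The median width of the 95% interval was 0.56 on either side, and it lay within -1 to 1 for 26, 25 and 25 of the 29 members at the 3 glyphosate concentrations and for 26 under Roundup.

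The members named by the smallest p in the herbicide groups overlapped the control libraries. IFITM1 was 5.79, 0.365, 6.05, 0.692 and 1.69 FPKM at 10 µg/L glyphosate, 8.48, 4.41, 3.60, 8.33 and 1.32 FPKM at 1 mg/L, and 8.34, 4.13, 6.48, 3.89 and 4.79 FPKM at 0.1 g/L. Under Roundup it was 1.10, 1.03, 2.19, 0.638 and 4 FPKM. Its lowest group mean was that under Roundup, 1.79 FPKM ± 1.36, and its highest that at 0.1 g/L glyphosate, 5.53 FPKM ± 1.87 (SD, n = 5). The log2 fold change under Roundup was -0.78 (SE 0.45, 95% interval -1.71 to 0.14, limma adjusted p = 0.902), and -0.50 at 10 µg/L glyphosate (adjusted p = 1).

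IRF9 was also below its control mean in each herbicide group. It was 3.00, 4.58, 3.57, 5.18 and 3.30 FPKM at 10 µg/L glyphosate, 3.08, 5.14, 3.72, 3.56 and 4.19 FPKM at 1 mg/L, and 2.33, 2.22, 4.75, 5.81 and 5.07 FPKM at 0.1 g/L. Under Roundup it was 5.01, 6.02, 2.18, 3.31 and 3.00 FPKM. The log2 fold changes were -0.44, -0.43 and -0.45 at the 3 glyphosate concentrations and -0.48 under Roundup, with adjusted p-values of 1, 0.963, 1 and 0.902 in limma. All of these, and the 3 PCB 126 values, rest on the same 5 control libraries. ISG15 was 22, 16.9, 12.8, 18 and 8.27 FPKM at 10 µg/L glyphosate, 18.5, 18.5, 12.9, 22.6 and 16.9 FPKM at 1 mg/L, 20.0, 12.1, 17.5, 21.2 and 16.1 FPKM at 0.1 g/L, and 23.9, 20.7, 12.6, 11.2 and 7.83 FPKM under Roundup.

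The IFIT and IFITM families, BST2 and IFI6 were as follows in the herbicide groups. IFIT1 was 4.21, 5.33, 4.05, 7.18 and 3.4 FPKM at 10 µg/L, 4.27, 5.09, 3.65, 8.82 and 5.81 FPKM at 1 mg/L, 4.92, 2.38, 4.09, 7.44 and 6.46 FPKM at 0.1 g/L glyphosate, and 4.63, 4.92, 4.59, 3.83 and 3.94 FPKM under Roundup. IFIT2 was 6.7, 7.37, 6.32, 7.67 and 3.21 FPKM at 10 µg/L, 6.7, 6.53, 6.24, 7.66 and 6.36 FPKM at 1 mg/L, 6.67, 3.68, 6.31, 7.09 and 5.74 FPKM at 0.1 g/L glyphosate, and 6.43, 7.84, 5.56, 4.23 and 3.34 FPKM under Roundup. IFIT3 was 8.66, 8.69, 6.45, 7.68 and 4.28 FPKM at 10 µg/L, 8.36, 8.99, 6.64, 9.2 and 7.31 FPKM at 1 mg/L, 8.59, 4.38, 7.93, 8.31 and 7.04 FPKM at 0.1 g/L glyphosate, and 8.67, 8.05, 6.1, 5.05 and 3.46 FPKM under Roundup. The lowest IFIT3 value at 10 µg/L and under Roundup was that of replicate 5, which stood apart in both groups. IFIT5 was 6.51, 7.01, 4.99, 6.06 and 3.18 FPKM at 10 µg/L, 6.54, 5.99, 6.17, 7.31 and 4.46 FPKM at 1 mg/L, 5.91, 3.46, 7.34, 6.66 and 5.08 FPKM at 0.1 g/L glyphosate, and 6.83, 6.99, 4.5, 3.44 and 2.71 FPKM under Roundup. IFITM2 was 129, 102, 59.9, 96.5 and 47 FPKM at 10 µg/L, 141, 82.7, 67.8, 87.2 and 90.7 FPKM at 1 mg/L, 133, 64, 79.6, 93.4 and 66.8 FPKM at 0.1 g/L glyphosate, and 133, 98.8, 64.6, 71.5 and 48.4 FPKM under Roundup. BST2 was 92.1, 83.4, 59.5, 72.9 and 37.5 FPKM at 10 µg/L, 87.6, 87.6, 68.1, 79.7 and 73.7 FPKM at 1 mg/L, 92.2, 46.3, 73.1, 78.2 and 65.5 FPKM at 0.1 g/L glyphosate, and 96.6, 90.7, 56.8, 42.4 and 32.5 FPKM under Roundup. Replicate 5 was also the lowest for these 3 genes in both groups. IFI6 was 40.6, 38.8, 28.9, 40.9 and 13.5 FPKM at 10 µg/L, 39.1, 37.3, 29.9, 42.9 and 38.1 FPKM at 1 mg/L, 37.1, 17.9, 31.8, 45.2 and 38.5 FPKM at 0.1 g/L glyphosate, and 40.3, 40.2, 27.9, 23.5 and 18.7 FPKM under Roundup. IFITM3 was 89.5, 157, 103, 139.6 and 72.4 FPKM at 10 µg/L, 82.7, 47.6, 112, 50.7 and 125 FPKM at 1 mg/L, 83.4, 30.9, 122, 141 and 114 FPKM at 0.1 g/L glyphosate, and 73.6, 167, 106, 35.5 and 69.7 FPKM under Roundup. IFI6 was again lowest in replicate 5 of both groups, and IFITM3 was lowest in replicate 4 under Roundup and in replicate 2 at 0.1 g/L, both among the libraries that stood apart.

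The factor IRF7, the sensor DDX58 and the low members had these values. IRF7 was 5.43, 5.87, 4.4, 5.1 and 2.1 FPKM at 10 µg/L, 6.11, 6.19, 3.62, 6.08 and 4.16 FPKM at 1 mg/L, 5.3, 2.7, 4.92, 6.02 and 4.15 FPKM at 0.1 g/L glyphosate, and 6.52, 4.93, 6.52, 3.05 and 2.72 FPKM under Roundup. DDX58 was 3.17, 0.0911, 0.0412, 3.75 and 0.135 FPKM at 10 µg/L, 0.266, 3.17, 3.01, 3.93 and 2.78 FPKM at 1 mg/L, 3, 0.122, 3.7, 0.0284 and 0.049 FPKM at 0.1 g/L glyphosate, and 3.41, 3.67, 2.71, 0.0589 and 0.063 FPKM under Roundup. IFI44L was 0.581, 0.367, 0.387, 0.609 and 0.749 FPKM at 10 µg/L, 0.352, 0.998, 1.26, 1.11 and 0.779 FPKM at 1 mg/L, 1.04, 0.365, 0.457, 0.747 and 0.71 FPKM at 0.1 g/L glyphosate, and 0.276, 0.404, 0.772, 0.456 and 0.301 FPKM under Roundup. DDX58 was at its low level in 3 libraries at 10 µg/L, 1 at 1 mg/L, 3 at 0.1 g/L and 2 under Roundup, and 3 IFI44L libraries at 1 mg/L lay above the highest control library. ISG20 was 0.888, 0.706, 0.379, 0.353 and 0.201 FPKM at 10 µg/L, 0.627, 0.848, 0.49, 1.12 and 0.611 FPKM at 1 mg/L, 0.508, 0.586, 0.49, 0.786 and 0.759 FPKM at 0.1 g/L glyphosate, and 1.18, 0.634, 0.354, 0.773 and 0.224 FPKM under Roundup. MX2 was 0.452, 0.431, 0.218, 0.38 and 0.258 FPKM at 10 µg/L, 0.463, 0.393, 0.271, 0.739 and 0.3 FPKM at 1 mg/L, 0.564, 0.137, 0.248, 0.221 and 0.339 FPKM at 0.1 g/L glyphosate, and 0.776, 0.358, 0.333, 0.258 and 0.246 FPKM under Roundup. OASL was 0.736, 0.4, 0.338, 0.385 and 0.217 FPKM at 10 µg/L, 0.361, 0.475, 0.219, 0.668 and 0.472 FPKM at 1 mg/L, 0.269, 0.178, 0.124, 0.464 and 0.276 FPKM at 0.1 g/L glyphosate, and 0.399, 0.215, 0.195, 0.292 and 0.0779 FPKM under Roundup. OASL had 3 libraries above the highest control library at 10 µg/L and 3 at 1 mg/L. It was the 1 member of the 10 below the filter with an unadjusted p under 0.05 at 1 mg/L, in limma without the filter (adjusted p = 1). RSAD2 was 0.0264, 0.0564, 0, 0.112 and 0.0158 FPKM at 10 µg/L, 0.0061, 0, 0.0207, 0.108 and 0.0107 FPKM at 1 mg/L, 0.0713, 0.059, 0, 0.0178 and 0.0242 FPKM at 0.1 g/L glyphosate, and 0.117, 0.0746, 0.028, 0 and 0 FPKM under Roundup. The groups of RSAD2 overlap near 0.

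In some libraries a low value of a member went with unnamed transcripts of its locus. IRF1, a factor that induces interferon genes, was 3.89, 2.04, 6.83, 1.52 and 6.67 FPKM at 1 mg/L glyphosate and 7.68, 5.15, 6.29, 6.27 and 3.39 FPKM in the control libraries. IRF1 was 7.13, 9.12, 5.89, 5.24 and 2.83 FPKM at 10 µg/L, 7.06, 4.77, 8.42, 4.31 and 5.28 FPKM at 0.1 g/L glyphosate, and 4.53, 6.93, 0.419, 4.86 and 3.94 FPKM under Roundup. Its log2 fold change of -0.49 (limma adjusted p = 0.963) turned to 0.11 with the unnamed transcripts of the locus added. PARP14 was 14.8, 8.61, 0.889, 16.9 and 12.4 FPKM at 0.1 g/L glyphosate and 15.5, 17.6, 14.8, 13.3 and 8.19 FPKM in the control libraries. PARP14 was 15.9, 16.6, 13.9, 13.8 and 7.62 FPKM at 10 µg/L, 15.2, 14, 15.3, 16.4 and 12.9 FPKM at 1 mg/L, and 15.5, 15.9, 12, 10.1 and 6.92 FPKM under Roundup. Its log2 fold change of -0.64 (limma adjusted p = 1) became -0.03 with those transcripts added and -0.07 without replicate 3 of 0.1 g/L. The unnamed share of the locus had a median of 68.9% for PARP9, 38.3% for STAT2, 22.1% for SAMD9L and 20.6% for IRF1. The medians of IFITM1 and DDX58 lay between those of STAT2 and SAMD9L. For PARP9 the mean at 1 µM PCB 126 was below the control mean only with its unnamed transcripts added. The named means were 3.81 ± 2.60 and 3.56 ± 2.87 FPKM (SD, n = 5). The sums were 6.34 ± 2.37 and 9.68 ± 2.46 FPKM. In that setting PARP9 had the smallest adjusted p of the 29 members in the PCB 126 trend (limma adjusted p = 0.160).

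Across all 8 groups the ratio of the highest to the lowest group mean was under 2 for 33 of the 39 members and under 1.5 for 20. The lowest group mean was that at 1 µM PCB 126 for 15 members, at 10 nM for 10 and under Roundup for 7. The highest was that at 1 mg/L glyphosate for 24 members and at 1 µM PCB 126 for 5. All genes tested had a median log2 fold change of 0.14 at 1 mg/L glyphosate against the control. Their median was -0.26 at 1 µM PCB 126, -0.21 at 10 nM and -0.18 under Roundup. The counts of ratios and of lowest and highest group means were not computed over all genes. They hence do not set the members apart from this general shift. Glyphosate at 1 mg/L and PCB 126 at 100 pM held none of the 9 libraries that stood apart. PCB 126 at 100 pM nevertheless had the highest group mean only for ISG20 and HERC6. PCB 126 at 10 nM, PCB 126 at 1 µM and Roundup held a pair of the 9 each. The part of these libraries in the order was not tested. The mean of the library medians was 2.61 ± 0.37 in the control group and 2.72 ± 0.20 at 1 mg/L, on the log2(FPKM + 1) scale (SD, n = 5).

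The other genes of the pathway did not pass the test either. Of 45 genes for ligands, receptors, kinases, sensors and regulators, 22 were tested with PCB 126 and 21 with glyphosate and Roundup. As tested, 0 were called in each comparison by limma. After quantile normalization 1 of the 22 was called across the PCB 126 groups, where 714 of 9755 genes were. At 1 µM PCB 126 and in the trend 2 of those 22 had an unadjusted p under 0.05. The smallest was that of TMEM173 (STING), the adaptor of cytosolic DNA sensing, with a log2 fold change of -0.88 (limma adjusted p = 0.261). At 1 µM the log2 fold change of IFNAR1 was -0.31 and of IFNAR2 -0.29 (95% interval -0.99 to 0.40), against a median of -0.26 over all genes. A further 30 interferon targets, among them TAP1, PSMB9 and B2M of antigen presentation, had 24 and 23 genes tested and 0 called in each comparison, with the same test. After quantile normalization 4 of the 24 further targets, B2M, PML, PSMB9 and TAP1, were called higher at 1 µM, where 5.45% of all genes were.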

How the data were processed

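The authors aligned paired reads to GRCh38 with HISAT2 and assembled and quantified transcripts with StringTie, as stated in the submitters' processing notes and the methods. The deposited values were FPKM of 234960 transcripts per library, not pooled. Some deposited columns hold values slightly below 0 and were handled as a score in the check of units, and the 4 such values with PCB 126 and the 6 with glyphosate were set to 0. FPKM were then summed per gene name, leaving out 35782 transcripts without a name. Read counts were not used here, so precision is given by the 5 libraries of each group.

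Groups came from the labels, where replicates carry no number. They are named here after the library number, in 5 runs that each hold 1 library per group. Same-run libraries deviated together in part, with correlations of -0.056 to 0.169 with PCB 126 and of -0.17 to 0.36 with glyphosate. Their medians were 0.063 and 0.069, against -0.040 and -0.035 for pairs from different runs. The correlations were of deviations from group means. That step alone makes pairs within a group correlate negatively, and all of these are from different runs. Part of the contrast between the 2 kinds of pairs is hence built in. A correlation above 0.1 was reached by 19 of 50 same-run pairs with glyphosate, against 7 of 250 pairs from different runs. With PCB 126 these were 7 of 30 and 4 of 160. The numbers were not taken to pair samples, and the main fits hold no term for run. No pair of libraries held identical values. Tests used lmFit and eBayes from limma 3.58.1 (R 4.3.3) on log2(FPKM + 1) for genes with a variance of FPKM above 1, fitting the groups of each table jointly, Benjamini-Hochberg adjustment and a threshold of 0.05. They covered each concentration against the control group, Roundup against 10 µg/L glyphosate, trends over dose steps and an F-test across groups. The procedure was first tested on simulated data. The members and lists were chosen with earlier results of these data known. Values in every library are given for the 2 members with the smallest p in each comparison with the control, the 5 highest and 5 lowest in the control group and the IFITM and IFIT families. Alternatives were another pseudocount (0.1), a minimum mean FPKM of 0.5 or no filter, scaling to the 75th percentile, quantile normalization, a block, ordinary linear regression with library size as a term, leaving out libraries, and adding unnamed transcripts. The addition of overlapping unnamed transcripts to IRF9 and DDX58 was chosen after seeing the data. Promoters came from RefSeq (GRCh38.p14). The software was Python 3.11.15, pandas 2.3.3, numpy 2.4.6 and, for plots, matplotlib 3.10.9. Some values of the pathway list are not reported here.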

Additional observations from a re-analysis of the deposited data

Results flagged for a closer look

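Among 160 groups of 5 libraries (20 members in 8 groups), 7 held a library far from the other 4, where chance gives about 1 in 20, or 8. IFI6 was 43.7 FPKM in 1 µM PCB 126 replicate 1 and 20.0 to 26.7 FPKM in the other 4. IRF7 was 2.67 FPKM in control replicate 5 and 4.86 to 5.51 FPKM in the others. IRF1 was 0.349 FPKM in 10 nM PCB 126 replicate 3 and 6.69 to 8.40 FPKM in the others. These 3 libraries are among those that stood apart on the first principal component. IFI44L was 0.517 FPKM in 1 µM PCB 126 replicate 3 and 0.0781 to 0.160 FPKM in the others. MX2 was 0.776 FPKM in Roundup replicate 1 and 0.246 to 0.358 FPKM in the others. RSAD2 was 0.108 FPKM in replicate 4 of 1 mg/L glyphosate and 0 to 0.0207 FPKM in the others. IFIT1 was 6.99 FPKM in 100 pM PCB 126 replicate 4 and 3.55 to 4.14 FPKM in the others.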

How the results depend on the processing

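The count of members past the threshold was 0 in every comparison and alternative run, with 3 exceptions (the fits of 2 groups alone gave no trend and no test across groups). After quantile normalization it was 1 at 1 µM PCB 126 and 1 in the PCB 126 trend, ISG15 both times (log2 fold change 0.77 at 1 µM, adjusted p = 0.0459, and 0.0458 in the trend, limma). In that setting 5.45% of all genes were called higher at 1 µM and 6.15% in the trend. In the ordinary linear model with a term for library size the count of members was 1 in the PCB 126 trend, PARP14 (adjusted p = 0.0296). That fit called 888 of 9755 genes in the trend. IRF1 at 1 mg/L glyphosate turned from -0.49 to 0.11 with the unnamed transcripts of the locus added. Leaving out each library in turn gave 0 members in every comparison (from 0 to 0). Over these fits ISG15 at 1 µM was 0.38 to 0.75, IRF9 at 1 µM -0.98 to -0.46 and PARP14 at 0.1 g/L glyphosate -0.88 to -0.07 on the log2 scale. The members' median at 1 µM was -0.29 to -0.04.

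Scaling moved the centre of all genes. At 1 µM PCB 126 the median of all genes was -0.26 as tested, -0.12 once scaled to the 75th percentile and -0.01 once quantile normalized, and that of the members -0.14, 0.01 and 0.10. Genes called higher and lower there were 63 and 119 as tested, 247 and 345 with 75th percentile scaling, 532 and 553 with quantile normalization, 448 and 375 in the ordinary linear model and 201 and 319 without the 9 libraries that stood apart. A replicate block by run gave 357 calls at 1 µM and 37 at 10 nM, with 0 members in each comparison, where the fits without the block gave 182 and 20. Over all alternatives the calls were 14 to 184 at 10 nM (20 as tested), 293 to 1257 in the trend (361) and 90 to 714 across the PCB 126 groups (136). In the herbicide comparisons at most 3 genes, none a member, were called under any alternative. Control replicate 5 alone raised the calls at 1 µM to 366 when left out, and control replicate 4 lowered them to 118. Of the libraries, 9 of 20 (PCB 126 table) and 18 of 25 (glyphosate table) correlated best with their own run. The negative correlation built into pairs within a group, all from different runs, also bears on this count. The causes were not tested. FPKM give no counting error, and low members such as RSAD2 cannot be resolved here.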
